A study of Mus musculus with 3 samples.

Results

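The 9 genes described here mark the transmitters of autonomic neurons that reach the vessel wall: Th, Dbh, Slc18a2 and Slc6a2 for noradrenaline, Npy, Vip and Cartpt for peptides, and Chat and Slc18a3 for acetylcholine. They were chosen by name from measured ratios of these same arrays, so their ratios are a description and carry no test. All 9 of the 9 genes have a probe on the array, 12 probe sequences in all out of 41174, and all 9 were among the 22043 features with usable signal. Total RNA of mouse aortas was hybridised to 3 two-colour oligonucleotide arrays of 1 slide. Each array held 1 aorta sample labelled Plk1(+/-), carrying 1 of 2 alleles of the gene for polo-like kinase 1, in the red dye Cy5. The green dye Cy3 carried the same pool of 3 wild-type aortas on every array. All animals were 3 to 5 months old and of the 129/CD1 strain. The 3 samples are separate biological replicates per the labels, no array had the dyes exchanged, and dye and genotype cannot be told apart. The pool is 1 control sample, so its own animal-to-animal spread is not in any ratio.

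Sympathetic neurons have their cell bodies in ganglia beside the spine and send axons into the outer coat of arteries, where noradrenaline constricts the muscle beneath. They make noradrenaline from tyrosine in successive enzyme steps, load it into vesicles, release it together with neuropeptide Y, and take it back up through a transporter. A minority of sympathetic neurons and the parasympathetic neurons use acetylcholine instead, often with vasoactive intestinal peptide. Transcripts of these genes are made in the cell body, and axons hold little of them.

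Probe signal was well above background on 66.0%, 69.0% and 68.0% of spots in Cy3 and on 80.3%, 77.0% and 80.8% in Cy5. The number of arrays limits the precision. Plk1 itself gave log2 ratios of -0.06, -0.08 and 0.42 in samples 1, 2 and 3, with a limma adjusted p of 0.705, so the arrays showed no lower Plk1 signal under the Plk1(+/-) label. A log2 ratio is the labelled sample over the pool throughout, and a value of 1 means 2-fold. At an adjusted p under 0.05, limma called 0.925% of the 22043 features, 8 higher and 196 lower, and none of the 9 transmitter genes. At an unadjusted p under 0.05 the share was 19% of features and again none of the 9. All 10 smooth muscle markers of the aortic wall were measured, with Acta2, Tagln and Cnn1 saturated on the scanner. Fat, skeletal muscle and lymphocyte markers were measured too, 10 of 10 in each list.

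The transmitter genes for noradrenaline and the peptides differed between the 3 labelled samples more than between samples and pool. Th, which encodes tyrosine hydroxylase, the rate-limiting enzyme of catecholamine synthesis, had log2 ratios of 1.39, 0.73 and -0.42 in samples 1, 2 and 3. Sample 1 was thus 2.63-fold above the pool, sample 2 lay 1.66-fold above it, and sample 3 lay below it. The mean of 0.57 ± 0.92 (SD, n = 3) is smaller than its spread. The array carries Th on 10 separate spots of the same probe, which ranged from 1.35 to 1.48 in sample 1, from 0.65 to 0.84 in sample 2 and from -0.48 to -0.34 in sample 3. The spots of the 3 samples did not overlap, and the SD over spots within an array was 0.0503 to 0.0545. The Th probe lies on the minus strand at chr7:139321292-139321351 of mm7, the build of the array's annotation, and is printed here because it is the member with repeated spots. Their SD is spot noise within an array for this probe, and leaves out labelling and hybridisation.
Th probe: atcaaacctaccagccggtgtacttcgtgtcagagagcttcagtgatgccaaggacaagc

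Dbh encodes dopamine beta-hydroxylase, which turns dopamine into noradrenaline inside the vesicle. Its log2 ratios were 1.31, 0.49 and -0.19, a mean of 0.53 ± 0.75 (SD, n = 3). Sample 1 was again the highest and sample 3 the lowest, with 2.83-fold between them. Slc18a2 encodes the vesicular monoamine transporter that fills the vesicles, and its log2 ratios were 1.30, 0.64 and -0.42. A separate Slc18a2 probe gave 1.41, 0.69 and -0.45, and the 2 probes differed by at most 0.10 on any array. Slc6a2 encodes the noradrenaline transporter of the axon membrane, a protein characteristic of noradrenergic cells. Its log2 ratios were 1.64, 0.65 and -0.24, and sample 1 stood 3.68-fold above sample 3. Npy encodes neuropeptide Y, a constrictor released with noradrenaline, and had log2 ratios of 1.38, 0.75 and -0.52.

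These 5 noradrenergic genes lay close together within each sample. Their log2 ratios spanned 1.30 to 1.64 in sample 1, 0.49 to 0.75 in sample 2 and -0.52 to -0.19 in sample 3. The genes were picked for such ratios and each sample is 1 array, so nothing is read from this closeness. Th, Npy and Slc18a2 stayed closest together: the log2 ratio of Npy minus that of Th was -0.01, 0.02 and -0.10, and that of Slc18a2 minus Th was -0.09, -0.09 and -0.0043. The 2 Slc18a2 probes differed from each other by up to 0.10. Dbh minus Th was -0.09, -0.24 and 0.23, so the step between samples 1 and 3 was smaller for Dbh, at 1.50 against 1.81 for Th. The other members' steps were 1.73 for Slc18a2, 1.88 for Slc6a2 and 1.90 for Npy, of which the last 2 differ by less than the 2 Slc18a2 probes did.

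The Npy probe differs from that of Th in spanning an intron. Its 60 bases map to chr6:49783794-49787556 of mm7, a span of 3763 bases, so they match in one run only in spliced message. Whether the probe also binds genomic DNA was not tested. The stretch is shown because it covers the end of the mature peptide: the capitals mark the codons for glycine, lysine and arginine, at which the precursor is cut and the peptide amidated.
Npy probe: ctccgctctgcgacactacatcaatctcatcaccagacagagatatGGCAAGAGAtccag

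**Figure D1:**
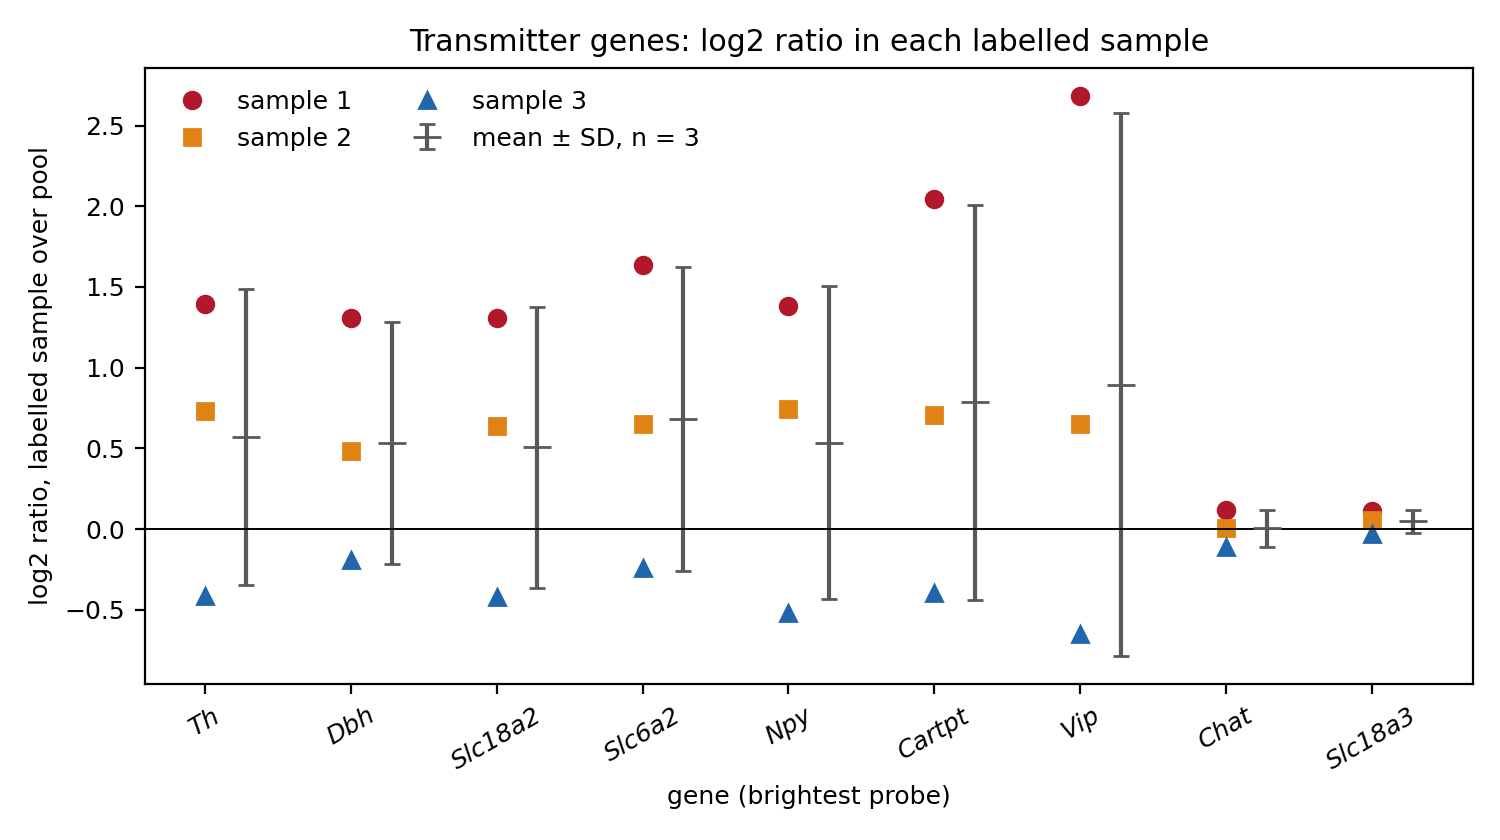
Log2 ratio of the labelled sample over the pool (vertical axis) for the 9 transmitter genes (horizontal axis), with a point for each sample and the mean ± SD over 3 samples as the grey bar. Sample 1 is the highest and sample 3 the lowest for each gene, Vip reaches from 2.68 to -0.65, and Chat and Slc18a3 stay within 0.12 of 0.

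Among the members, the peptide genes Vip and Cartpt showed the widest differences between samples. Vip encodes vasoactive intestinal peptide, a dilator of arteries made by cholinergic autonomic neurons and by other neurons. Its log2 ratios were 2.68, 0.65 and -0.65, with a mean of 0.90 ± 1.68 (SD, n = 3). Sample 1 held 6.43 times the signal of the pool and 10.1 times that of sample 3. Cartpt encodes the precursor of the cocaine- and amphetamine-regulated transcript peptides, found in a subset of sympathetic neurons. Its log2 ratios were 2.05, 0.71 and -0.40, with sample 1 at 4.13-fold the pool and 5.43-fold sample 3. A second Cartpt probe gave 1.92, 0.66 and -0.49, within 0.12 of the first on each array.

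The agreement of the Cartpt probes is not that of independent probes. They lie 10 bases apart on the minus strand, at chr13:96968666-96969655 and chr13:96968656-96969645 of mm7, each across a span of 990 bases that includes an intron. They share 50 of 60 bases, which are in capitals, and both are printed to show that overlap.
Cartpt probe 1: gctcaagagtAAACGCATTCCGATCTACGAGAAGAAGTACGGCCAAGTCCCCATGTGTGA
Cartpt probe 2: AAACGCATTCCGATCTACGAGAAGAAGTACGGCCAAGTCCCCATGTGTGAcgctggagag

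In sample 1, Vip and Cartpt stood furthest above Th among the members. The log2 ratio of Vip minus that of Th was 1.29 in sample 1, -0.08 in sample 2 and -0.23 in sample 3. For Cartpt it was 0.65, -0.02 and 0.02. The 2 overlapping Cartpt probes differed from each other by up to 0.12, and no error of the difference between genes can be had from 1 array. Each sample was hybridised to 1 array, so sample and array cannot be told apart. Of 13 other genes for autonomic peptides and Nos1 that were measured, 4 had a step of at least 1 from sample 3 to sample 1. Over all features the share was 2.6%. These 4 are named after their values were seen. Somatostatin (Sst) had log2 ratios of 1.81, -0.25 and -0.54, gastrin-releasing peptide (Grp) 1.62, 0.10 and -0.56, prodynorphin (Pdyn) 1.73, 0.17 and -0.07, and galanin (Gal) 1.46, 0.42 and -0.72. In sample 2, Sst, Grp and Pdyn lay further below Th than Vip and Cartpt did, with log2 differences of -0.98, -0.63 and -0.56. Others differed from this: Nmb, the gene of neuromedin B, was lowest in sample 1, at -0.79, -0.32 and 0.47, and Calca, for calcitonin gene-related peptide, gave -0.15, 0.04 and 0.14.

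**Figure D2:**
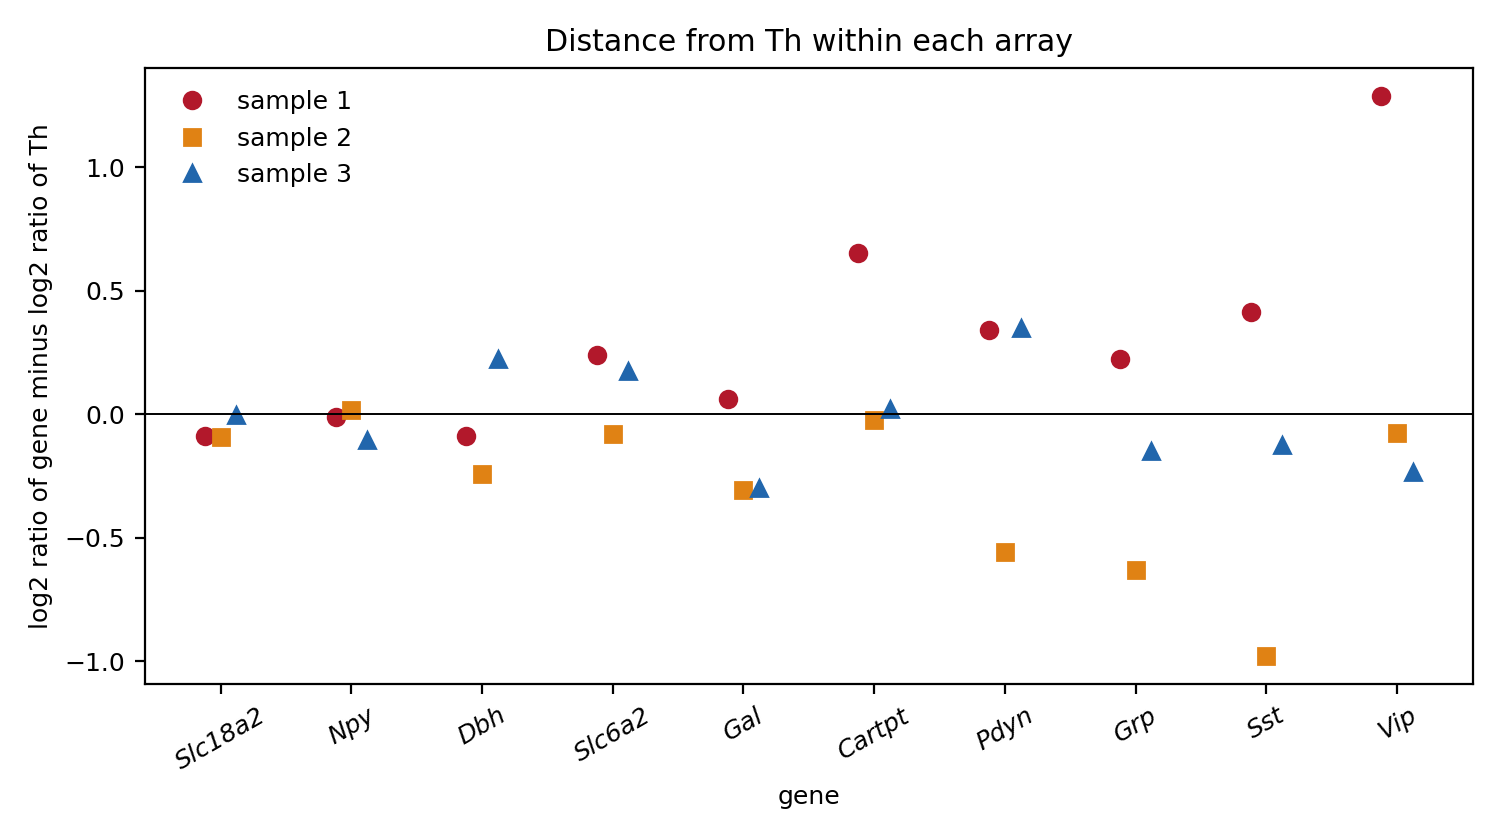
Log2 ratio of each gene minus the log2 ratio of Th on the same array (vertical axis) for noradrenergic and peptide genes (horizontal axis), with a point for each sample. Slc18a2 and Npy stay within 0.11 of Th, while Vip reaches 1.29 and Cartpt 0.65 above Th in sample 1.

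The cholinergic members gave ratios near 0 at low signal. Chat encodes choline acetyltransferase, which makes acetylcholine, and Slc18a3 encodes the vesicular acetylcholine transporter, read from the same locus within the Chat gene. The brighter Chat probe had log2 ratios of 0.12, 0.0088 and -0.11, a mean of 0.0041 ± 0.12 (SD, n = 3). Its Cy5 mean signals were 325, 289 and 282, close to the median of all spots, which was 335, 357 and 337. The other Chat probe was not well above background in either dye on any of the 3 arrays and has no fold. Slc18a3 had log2 ratios of 0.11, 0.06 and -0.03. Its probe was well above background in Cy5 on all 3 arrays but in Cy3 on none. Against the Cy3 floor of 6.67, the Cy5 mean of 6.70 on the normalized log2 scale gives a bound of at least 1.02-fold under loess, which did not hold under median centring, where the mean log2 ratio was -0.36. With the scanner's processed signals in place of normexp and loess, the mean was 0.45 for Slc18a3 and -0.17 for Chat. The probes therefore give no direction, and do not show whether the transcripts differed.

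The Chat probes are printed because they read different stretches of the coding message and only the first was measured. They map to the minus strand at chr14:29880627-29880686 and, across an intron, chr14:29885420-29886193 of mm7, and no base is in capitals.
Chat probe 1: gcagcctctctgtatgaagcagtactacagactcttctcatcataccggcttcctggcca
Chat probe 2: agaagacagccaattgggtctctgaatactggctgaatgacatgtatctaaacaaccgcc

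All 9 members lay above 0 in samples 1 and 2 and below 0 in sample 3, as did 9.93% of all features. All 9 were highest in sample 1 and lowest in sample 3, as were 20.8% of features. Chat and Slc18a3 are counted here although their probes give no direction. For 7 of the 9, sample 1 exceeded sample 3 by at least 1 on the log2 scale, against 2.6% of features. The genes were picked for such ratios, and nothing is read from these counts. The sign in sample 3 depends on the normalization. With each array centred on its median in place of loess, the ratio of sample 3 became 0.24 for Dbh and 0.23 for Slc6a2, and it came to -0.01 for Th, -0.01 for Slc18a2 and -0.06 for Npy, which leaves no clear difference from the pool. The step between samples 1 and 3 moved little for the brighter members. Over the 10 alternatives that keep all 3 arrays it was 1.81 to 1.91 for Th and 1.50 to 1.59 for Dbh. It was 1.88 to 1.91 for Slc6a2 and 3.34 to 3.46 for Vip. For the dimmer members it moved more, from 2.43 to 3.02 for Cartpt, 0.23 to 0.42 for Chat and 0.14 to 0.96 for Slc18a3. Vip's mean moved from 0.90 to 0.00019 without sample 1 and to 1.67 without sample 3, and the median of the 9 members' means moved from 0.54 to 0.11 and 1.06.

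The differences lay in the Cy5 channel more than in the shared pool. The normalized log2 level of Th in the pool was 10.8, 10.7 and 10.5 on arrays 1, 2 and 3, and that of the labelled samples was 12.2, 11.4 and 10.1. For Vip the pool gave 10.7, 10.5 and 10.5 and the samples 13.4, 11.1 and 9.90. Across the 7 members other than Chat and Slc18a3, the same pool RNA varied over the 3 arrays with an SD of 0.05 to 0.31, and the 3 samples with an SD of 0.94 to 1.78. The pool level was also highest on array 1 for each of these 7 genes, by the widest range, 0.62, for Dbh. No member was saturated in either dye. Levels of different genes are not set against each other, as each probe binds with its own strength.

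**Figure D3:**
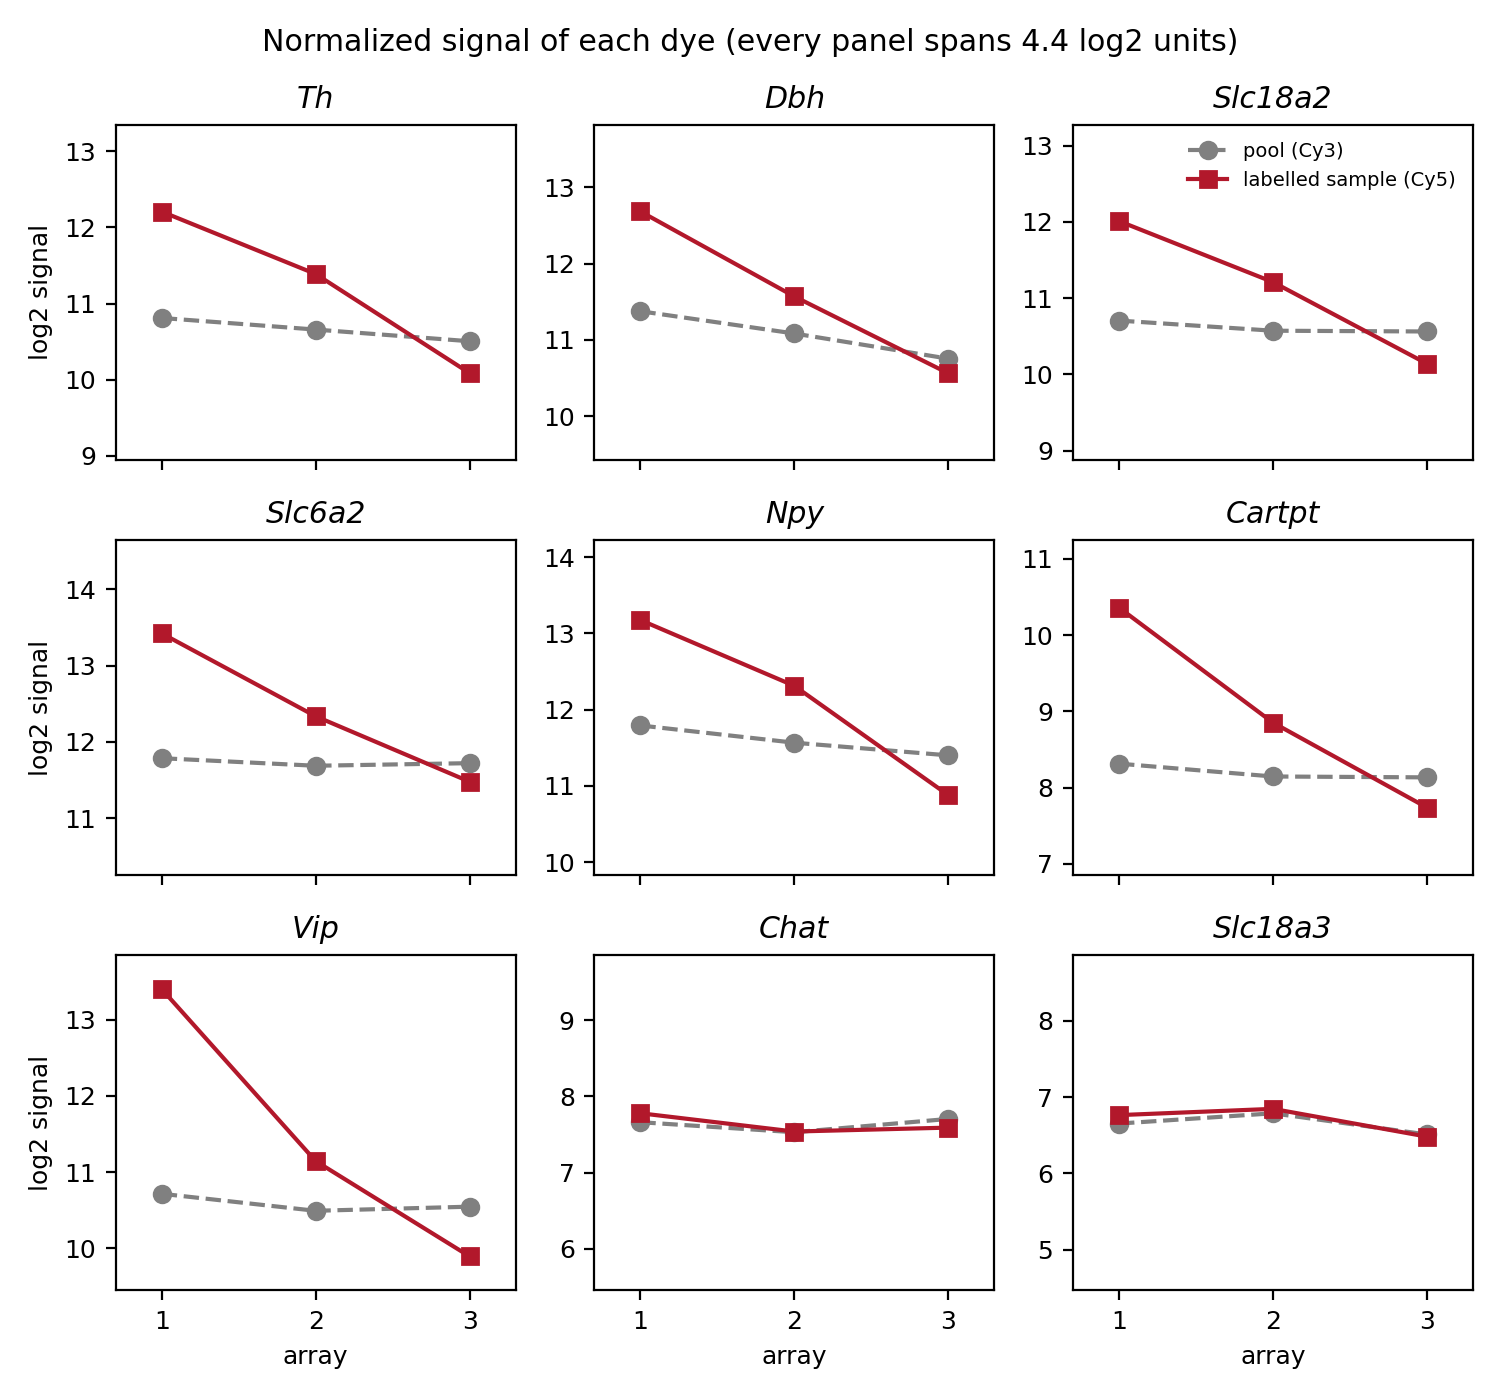
Normalized log2 signal (vertical axes, each spanning the same number of log2 units) on the 3 arrays (horizontal axes) for the pool in Cy3 (grey) and the labelled sample in Cy5 (red), with a panel for each gene. The Th level of the samples drops from 12.2 to 10.1 between arrays 1 and 3, while that of the pool stays between 10.8 and 10.5.

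Promoter sequence from RefSeq (GRCm38.p6), from 250 bases before to 50 after the start of each gene, was at hand for 8 of the 9 members, all but Slc6a2. The cAMP response element TGACGTCA, a palindrome and so the same on either strand, was in 1.79% of 32851 such windows and in those of Th, Slc18a2 and Cartpt. Its core TGACG, searched on both strands and contained in the whole element, was in 20.8% of windows and in 7 of the 8 members, without Npy. The element is known from the Th gene, where it answers to cAMP. Stretches are shown for the 3 members that hold the element and for Vip, the member with the widest ratios, with the element, or in Vip its core, in capitals. They were picked for the motif and for Vip's values, not for likeness of ratios: Npy, close to Th in ratio, has neither. They run 5′ to 3′ on the strand of the gene: Th on the minus strand at chr7:142900003-142900080, Slc18a2 on the plus strand at chr19:59260834-59260897, Cartpt on the minus strand at chr13:99900758-99900835 and Vip on the plus strand at chr10:5639099-5639173.
Th promoter: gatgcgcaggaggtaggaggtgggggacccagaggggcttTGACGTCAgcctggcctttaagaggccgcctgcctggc
Slc18a2 promoter: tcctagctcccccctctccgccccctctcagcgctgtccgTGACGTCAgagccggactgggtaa
Cartpt promoter: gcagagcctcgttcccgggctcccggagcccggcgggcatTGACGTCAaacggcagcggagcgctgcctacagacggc
Vip promoter: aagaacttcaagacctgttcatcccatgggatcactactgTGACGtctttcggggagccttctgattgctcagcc

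In Th the element begins 45 bases before the start, in Cartpt 112, in Slc18a2 4, and in Vip the core begins 79 bases before it. Chat and Slc18a3, whose ratios stayed near 0, hold the core as well. A match of letters describes the window, and nothing is drawn from it about a factor.

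The other enzymes and transporters of catecholamine and biopterin metabolism included genes with ratios like those of Th, genes near 0 and genes between or apart from these. All 15 listed genes were measured, and none passed limma's adjusted threshold. At an unadjusted p under 0.05, 4 were higher and none lower, against 2022 higher and 2159 lower of the 22043 features. The smallest p-values belonged to genes with small, even ratios: Qdpr, which regenerates the biopterin cofactor of Th, had a mean of 0.27 ± 0.08, Spr, which makes that cofactor, 0.25 ± 0.09, and Slc18a1, the monoamine transporter of endocrine cells, 0.21 ± 0.09 (SD, n = 3 each). Genes with the pattern of Th, named after their values were seen, had larger and more scattered ratios. Ddc, the decarboxylase after Th, gave 1.64, 0.72 and -0.55, Gch1, the first enzyme of biopterin synthesis, 1.16, 0.51 and -0.28, and Maoa, which breaks noradrenaline down, 0.99, 0.32 and -0.33. Pnmt, which turns noradrenaline into adrenaline in the adrenal medulla, gave 0.15, 0.14 and 0.23. Slc6a3, the dopamine transporter, stayed within 0.03 of 0 at a mean log2 intensity of only 6.54. At so low a signal its ratios do not show whether the transcript differed. Slc22a3, an extraneuronal monoamine transporter and the remaining gene at an unadjusted p under 0.05, was highest in sample 3, with 0.07, 0.47 and 0.91. Over the list the medians of samples 1, 2 and 3 were 0.30, 0.31 and -0.06, against 0.03, 0.01 and 0.04 over all features. Centred on the array median instead, 7 of these 15 genes passed, 6 of them higher, but so did 9761 of all 22043 features, 7152 of them higher.

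Among 15 other cholinergic genes none passed the adjusted threshold, with 1 higher and 1 lower at an unadjusted p under 0.05. Of all features, 19% passed that unadjusted threshold. Chrm1, a muscarinic receptor, had a mean of -0.64 ± 0.29, Chrna7, a nicotinic receptor subunit, 0.18 ± 0.03, and Chrnb2, another, 0.28 ± 0.24 (SD, n = 3 each). At a mean log2 intensity of only 6.59, the ratios of Chrna7 and their small SD say little. Some genes of acetylcholine handling, named after their values were seen, were highest in sample 1 and lowest in sample 3. Slc5a7, the choline transporter of cholinergic terminals, had log2 ratios of 1.18, 0.66 and -0.10. Ache, the esterase, had 1.30, 0.43 and -0.19. Chrna3, the receptor subunit by which autonomic ganglion neurons of either kind are excited, had 1.87, 0.53 and -0.36. The list's medians were 0.27, 0.17 and -0.06.

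Of 14 other autonomic neuropeptide genes with Nos1, 13 were measured and none passed the adjusted threshold. At an unadjusted p under 0.05, where 19% of all features passed, 2 were higher and 2 lower. Penk, the enkephalin precursor, stood opposite to Vip, with log2 ratios of -1.11, -0.52 and -0.44, lowest in sample 1. Pomc, the precursor of corticotropin and endorphin, had a mean of 0.31 ± 0.13. Nos1, the neuronal nitric oxide synthase, had a mean of -0.45 ± 0.36 (SD, n = 3 each). The medians were 0.46, 0.04 and -0.09, and the list's middle value of 0.23 turned to -0.08 without sample 1. Of 16 receptors for these transmitters in target tissue, 13 were measured and none passed the adjusted threshold. Npy1r, the vascular receptor of neuropeptide Y, had a mean of -0.57 ± 0.31, Adcyap1r1, which binds a peptide related to Vip, 0.57 ± 0.48, and Adrb3, an adrenergic receptor of fat, -0.40 ± 0.45. The receptor medians were 0.06, 0.05 and -0.03, near those of all features.

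Dense-core vesicle and peptide processing genes followed Th more closely. Of 14 listed, 13 were measured, and for 10 of these sample 1 exceeded sample 3 by at least 1, against 2.6% of all features. The list was chosen with results of these arrays known, and nothing is read from that count. The medians were 1.40, 0.54 and -0.19. None passed the adjusted threshold. At an unadjusted p under 0.05, where 19% of all features passed, 2 were lower. These were Pam, which amidates peptides such as those of Npy and Vip, at -0.58 ± 0.18, and Cpe, a carboxypeptidase that trims them, at -0.62 ± 0.49, next to Pcsk1n, an inhibitor of the cutting enzyme, at 0.63 ± 0.60 (SD, n = 3 each). Chgb, a granin named after its values were seen, gave 1.91, 1.01 and -0.19. Of 18 transcription factors and neurotrophic receptors of the sympathetic lineage, 17 were measured, none passed either threshold, and the medians were 0.34, 0.20 and -0.13. The smallest p-values were those of Hmx2, at 0.19 ± 0.10, Gfra3, at -0.35 ± 0.31, and Gata3, at 0.40 ± 0.45. Hmx2 lay at a mean log2 intensity of only 6.54, so its ratios say little. Phox2a, a factor that switches on Th and Dbh, was named after its values were seen and gave 1.28, 0.51 and -0.46.

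Structural markers of autonomic neurons shared the differences between samples. All 18 of the listed markers were measured, and for 18 of them sample 1 exceeded sample 3 by at least 1, against 2.6% of all features. Above 0 in samples 1 and 2 and below 0 in sample 3 were 17, against 9.93% of all features. This list was drawn up with results of these arrays known and is no independent evidence. None passed the adjusted or unadjusted threshold. Rtn1 gave 1.62, 0.83 and -0.19, Prph, the intermediate filament of peripheral neurons, 1.58, 0.81 and -0.22, and Stmn2, a tubulin-binding protein of growing axons, 1.68, 0.84 and -0.26. The list's medians were 1.46, 0.61 and -0.39, close to the members' medians of 1.38, 0.65 and -0.40. Summed over the 18 markers, the linear signal was 142100, 82180 and 43170 in samples 1, 2 and 3, against 52910 to 55090 in the pool, with the saturated Uchl1 included. Summed over the 9 members it was 48110, 21370 and 9909, against 12850 to 15500. In tissue RNA, fewer cells of a type and less RNA per cell cannot be told apart, and the part of neuron content in the members' ratios was not tested.

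Markers of other cells were less alike. Of 14 Schwann cell markers, the glia around axons, all were measured, and for 1 of them, the saturated S100b, sample 1 exceeded sample 3 by at least 1. Their medians were 0.36, 0.09 and 0.13, and their summed signal was 83260, 64960 and 54060, against 67030 to 77440 in the pool, S100b included. S100b, at a mean log2 intensity of 15.0 and with log2 ratios of 0.33, -0.35 and -1.08, weighed most in that sum. The fall of the sum is therefore not that of the 14 markers alike. Pmp22 gave 0.22, -0.18 and -0.23. Of 10 adrenal cortex markers 8 were measured, and Cyp11b2, the aldosterone synthase, was not well above background on any array. Their summed signal was 4234, 4075 and 3797, against 3557 to 3798 in the pool, and Fdxr and Mc2r had means of 0.17 ± 0.10 and 0.12 ± 0.15 (SD, n = 3 each). Fdxr, at a mean log2 intensity of 11.2, made up most of that sum. Cyp11a1, Cyp21a1, Hsd3b1 and Akr1b7 lay at only 6.51 to 6.69, so the sum says little about them. Lymphocyte markers were highest in sample 3, with medians of 0.14, 1.44 and 1.95. Their summed signal was 4844, 13870 and 23610, against 4294 to 4686, and Cd79b, a part of the B cell receptor, gave 0.24, 1.78 and 2.93. Skeletal muscle markers were lowest in sample 3, with medians of -0.69, -0.94 and -3.05 and a sum of 41860 there against 309500 to 356900 in the pool, with the saturated Myh4 and Myh2 included. Tnni2, an inhibitory troponin of fast fibres, gave -0.57, -0.93 and -2.71. Smooth muscle medians were -0.63, -1.47 and -1.10, fibroblast medians -0.25, -0.44 and -0.36, and fat medians -1.23, -1.28 and -1.27, where 3, 2 and 7 of 10 markers were saturated. The saturated Cidec, Ucp1 and Gsn gave the same rounded log2 ratios of -1.45, -1.43 and -1.49 in samples 1, 2 and 3. Saturated spots numbered 574 to 627 per array in Cy5 and 66 to 104 in Cy3. The fat medians therefore give no fold. The part of these differences between marker lists in the members' ratios was not tested.

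**Figure D4:**
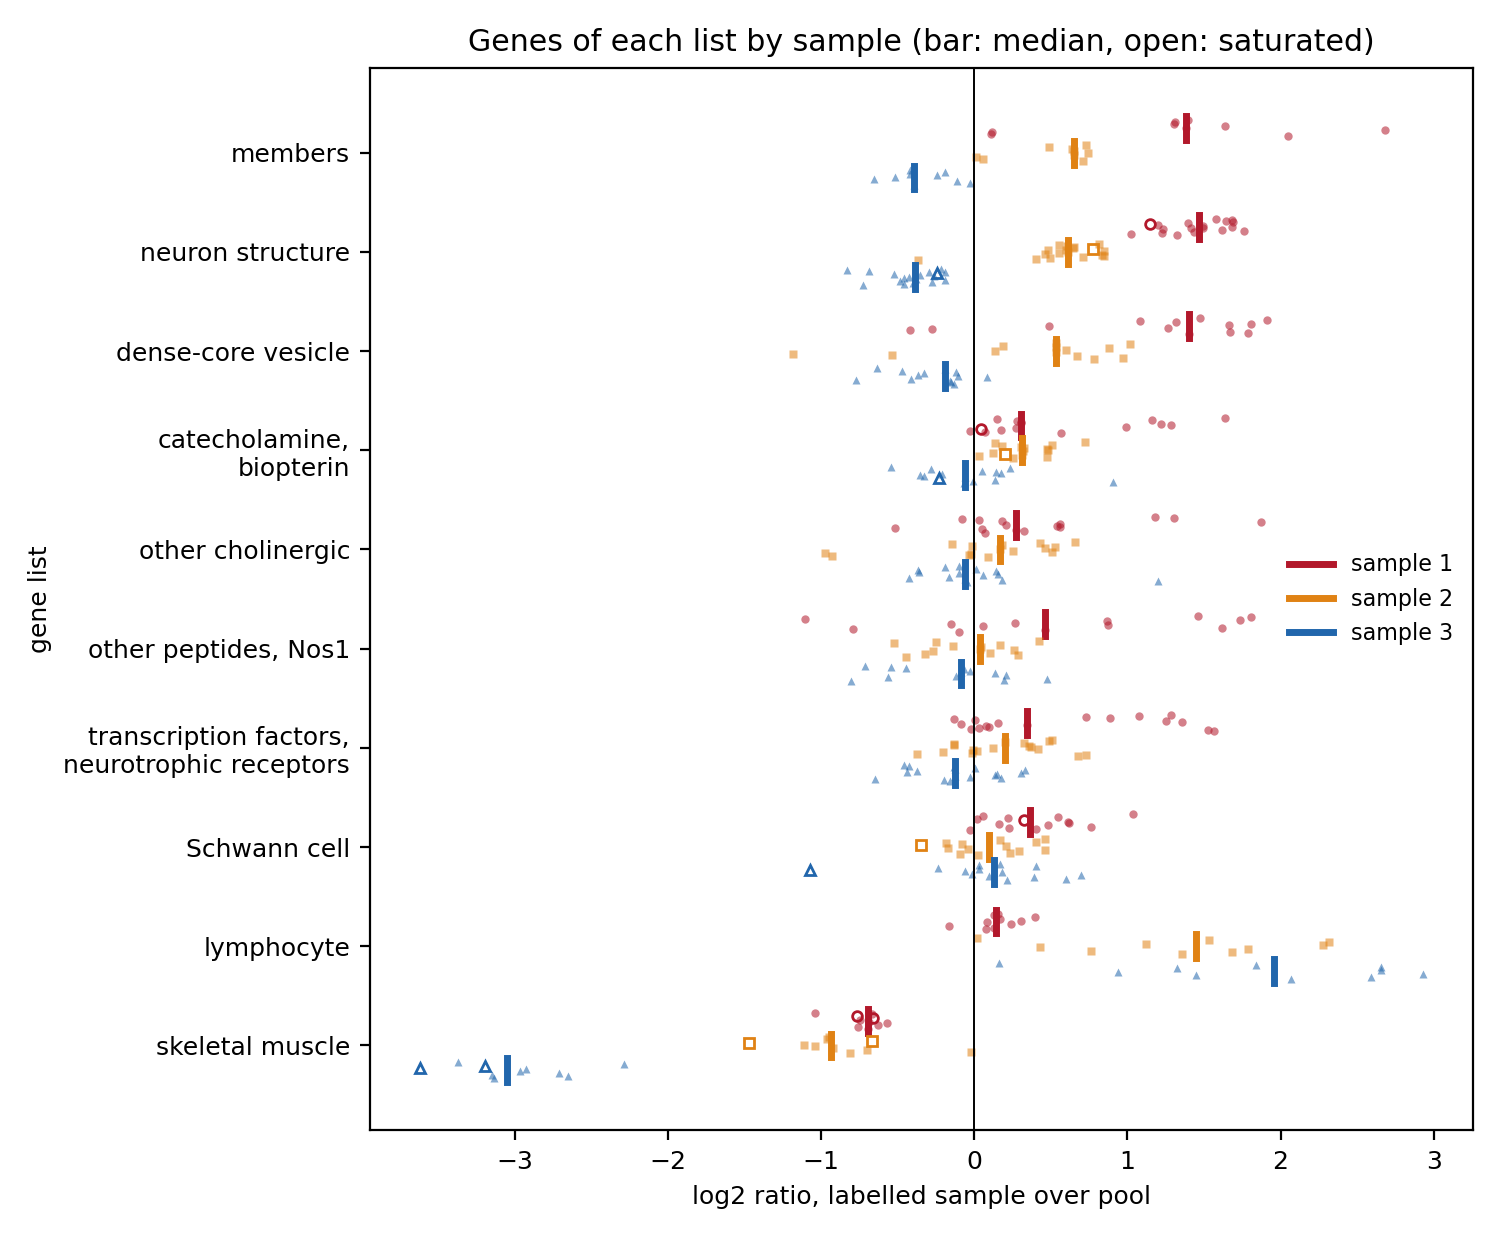
Log2 ratio (horizontal axis) of every measured gene of 10 lists (vertical axis), by sample, with the median as a bar and saturated genes as open points. Neuron structure markers have medians of 1.46, 0.61 and -0.39 in samples 1, 2 and 3, next to 1.38, 0.65 and -0.40 for the transmitter genes, while lymphocyte markers have 0.14, 1.44 and 1.95.

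For each member, the features with the most similar log2 ratios over the 3 samples were found by Euclidean distance. Nearest to Th were Syn2, Tmem130 and Tagln3, at distances of 0.0568, 0.0847 and 0.0896, followed by Npy at 0.105. Nearest to Npy were Th, Pnma2 and Rit2, to Dbh Rab3c, Lrrn3 and Ache, to Slc18a2 Nrip3, Avil and Stmn3, and to Slc6a2 Sult4a1, Rab15 and Nefh. The noradrenergic genes thus each had neighbours within 0.13. Vip had none so close: Cartpt was nearest at 0.690, then Celf3 at 0.701 and 1700018G05Rik at 0.707. Cartpt lay nearest to Slc10a4, at 0.184, Chrna3, at 0.250, and 1700018G05Rik, at 0.289. Chat had Ugt3a2, Ppp1r9a and Uck2 nearest, and Slc18a3 had Hectd3, Olfr860 and Tunar, all within 0.03, in the dense band of features near 0. Likeness over 3 samples against 1 pool is a description.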

How the data were processed

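Total RNA of 3 aorta samples labelled Plk1(+/-) and of a wild-type pool was compared. The labels give aorta as the tissue but a growth protocol of embryonic stem cells, and the former was taken. The deposited intensity values come from Agilent's Feature Extraction software (version 9.5.3.1 in the headers) and are mean signals with no background subtracted. The deposited log10 ratio, from processed signals, per the file headers, and the authors' log2 series values (10 of the 12 member probes, centring not stated) served as alternatives. In limma 3.58.1 (R 4.3.3, with the data.table package in version 1.17.8), mean signals were background-corrected by normexp (offset 50) and loess-normalized within arrays, with control spots at weight 0. Outlier spots were left out, spots of a probe averaged, and probes kept where 1 dye or both stood well above background on 2 or 3 arrays. The brightest probe stood for a gene. A two-sided moderated test of each ratio against 0 (lmFit, then eBayes) was adjusted by Benjamini-Hochberg over all features. Levels per dye were scaled between arrays by Aquantile, and a bound uses the higher of the lowest signal well above background and the probe's own on each array.

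Names came from RefSeq GRCm38.p6, where 22951 probes matched by accession, 6659 by symbol and 3109 by synonym, while 8455 stayed under their array name. Positions are mm7, as annotated on the array. Exon and UTR annotation was not analysed here. The members, the gene lists and the rule for named genes were chosen with earlier results of these data known. The rule took every member, Plk1, called list genes and up to 3 list genes with the smallest p, the 2 brightest of each cell type list, and the 3 nearest features of each member. The fit was tested on simulated data. Alternatives were another normalization, background correction, filter, probe choice, variance model and set of values, saturated features left out, and each sample left out.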

Additional observations from a re-analysis of the deposited data

How the results depend on the processing

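No member was called under any of the 13 alternatives, and the signs of the 7 member means other than Chat and Slc18a3 held in all 13. Without sample 1, however, Vip's mean of 0.00019 was no clear difference from the pool. The median of the members' means fell to 0.11 there, so their size rested largely on sample 1. Of 22043 features, limma called 204, but 9761 with median centring (7152 higher, median of all features 0.23), 125 with the scanner's processed signals, 0 with saturated features left out (3806 at an unadjusted p under 0.05) and 0 with an intensity trend in the variance (4188). Leaving out a sample gave 0 to 175 calls: 175 without sample 1, 0 without sample 2 (1984 at an unadjusted p under 0.05) and 0 without sample 3 (3096). With median centring, list members called were 7 for catecholamine, 3 for other cholinergic, 1 for neuropeptide, 1 for receptor, 3 for transcription factor, 1 for dense-core vesicle and 1 for neuron structure genes, against 0 in each; the shift of all features moves with these. The number of members above 0 in samples 1 and 2 and below 0 in sample 3 was 6 with median centring, 8 with processed signals and 7 of 8 with the series values, against 9. Slc18a3's mean became -0.36 with median centring and 0.45 with processed signals, and Chat's -0.17 with processed signals. Slc18a3 was not well above background in Cy3 on any array. Members highest in sample 1 and lowest in sample 3 numbered 8 or 9 in the 10 alternatives with all arrays. The cause of these changes was not tested. No paired analysis was possible because all labelled samples form 1 group and share 1 pool.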
